A study of Mus musculus with 9 samples.

Results

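The genes described here are 9 of the 32285 genes in the matrices, chosen by name for their part in the release of paused RNA polymerase II (Pol II): Supt5 and Supt4a, which encode the subunits of DSIF, Cdk9, Ccnt1 and Ccnt2 of the kinase P-TEFb, Hexim1 and Larp7 of the 7SK small nuclear ribonucleoprotein, Ell2 of the super elongation complex, and Paf1 of the PAF1 complex. All 9 were found, and all 9 passed the filter on low counts in every test. Single cell RNA-seq was performed on whole testes of 9 male C57BL/6 mice at postnatal day (PND) 24, 1 library each: 4 controls, 2 with a conditional knockout (cKO) of NELF-B and 3 with one of TDP-43. The cKO mice carried 1 floxed and 1 null allele of Nelfb (exons 1 to 4) or of Tardbp (exon 3), the gene for TDP-43, so that all their cells lack 1 allele, and the Stra8-iCre transgene, which acts in spermatogonia (SG) from PND 4 and may not be fully penetrant at PND 24. Control mice were littermates and non-littermates. The labels do not state the alleles of each control mouse, and the deposited data of control replicate 2 carry the word het in their name, which no source used here explains. No source links any of the libraries by litter or day.

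Shortly after initiation, Pol II pauses downstream of the start site, held there by NELF and DSIF. P-TEFb, a pair of CDK9 and a cyclin T, phosphorylates both and the Pol II tail, upon which NELF leaves and DSIF stays on as an elongation factor. The 7SK ribonucleoprotein holds P-TEFb inactive, whereas the super elongation complex and the PAF1 complex act with it on elongating Pol II.

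Promoter sequences at the RefSeq starts were compared first. Among these, those of 2 members, Larp7 and Ell2, held the letters of the cAMP response element, TGACGTCA, the site of the CREB and CREM factors. Larp7 rose through meiosis, and Ell2 made the largest single step between stages. The 300 bases from 250 before to 50 after the start site were taken from RefSeq on GRCm38.p6 for all 9 members. Larp7 lies on the minus strand at chr3:127553300-127553599 and Ell2 on the plus strand at chr13:75707234-75707533. Each is written 5′ to 3′ along the gene, with the letters of the element in capitals.
Larp7: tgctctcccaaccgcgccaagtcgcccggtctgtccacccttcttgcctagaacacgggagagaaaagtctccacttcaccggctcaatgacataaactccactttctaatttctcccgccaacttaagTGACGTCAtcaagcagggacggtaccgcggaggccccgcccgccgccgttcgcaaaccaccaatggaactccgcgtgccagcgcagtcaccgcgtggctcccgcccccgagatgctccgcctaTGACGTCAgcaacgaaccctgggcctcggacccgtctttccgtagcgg
Ell2: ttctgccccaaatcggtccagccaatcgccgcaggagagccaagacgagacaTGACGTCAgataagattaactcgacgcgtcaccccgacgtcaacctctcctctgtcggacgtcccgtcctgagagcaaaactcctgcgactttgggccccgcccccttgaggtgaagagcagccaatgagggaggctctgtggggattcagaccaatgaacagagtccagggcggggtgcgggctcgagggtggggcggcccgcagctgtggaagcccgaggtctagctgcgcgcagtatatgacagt
The Larp7 promoter held 2 matches, which began 121 bases before and 2 bases after the start site, and the Ell2 promoter held 1, which began 198 bases before it. These distances are from the RefSeq start, which for Ell2 lies inside the gene as GENCODE places it, from 75706757 on. The windows searched for Ccnt1 (chr15:98567687-98567986) and Cdk9 (chr2:32712735-32713034) also lie inside their GENCODE genes. Both genes are on the minus strand and begin at 98570923 and 32713076. Promoters at the GENCODE starts were not searched, so members without a match lack it only in the RefSeq windows. The element reads the same on both strands and was searched as these exact letters, which were chosen after the sequences and the levels had been seen. It occurred in 588 of 32851 mouse promoters of this length (1.79%), and 13 promoters (0.0396%) held 2 or more matches. The matches are a description of the letters, and no binding was measured.

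The libraries held 119203347 to 159407373 UMIs each, a UMI being the count of 1 captured transcript molecule. Of the barcodes, 45132 had over 1000 genes detected with a mitochondrial share of UMIs under 10%, and clusters holding 28602 of them were named from marker genes, after clustering on genes that excluded the 9 members. The classes used are SG, early spermatocytes (early SC: preleptotene, leptotene and zygotene), pachytene (P) and diplotene (D) SC, round spermatids (RS), Sertoli cells, Leydig cells and interstitial cells. Each named cluster showed most of its class's markers at 2-fold or more above the rest. From the cKO mice, germ cells in which Nelfb or Tardbp, respectively, was detected were removed. This took out 234 NELF-B cKO and 3171 TDP-43 cKO cells and left 25197 cells. Before this step Nelfb stood at 65.6 to 78.5 CPM (counts scaled to a sum of 1000000 UMIs per mouse and class) in control SG and at 4.77 and 5.31 CPM in NELF-B cKO SG. Tardbp stood at 68.3 to 90.4 CPM in control SG and at 31.2 to 37.2 CPM in TDP-43 cKO SG, but its 3′ end lies outside the deleted exon, so this does not measure the deletion. Nelfb was also low outside the germ line, at 6.41 and 10.5 CPM in Sertoli cells of NELF-B cKO mice against 18.3 to 26.8 CPM in controls. Most control SG lay in another cluster than most SG of NELF-B cKO replicate 2 and the TDP-43 cKO mice. These 4 mice held at most 13 D SC each against 200 to 541 in controls. Of 25102 barcode sequences of kept cells, 95 occurred in more than 1 library, at most 9 for a pair of libraries.

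To ask how the members differ between germ cell stages, UMIs were summed per control mouse and class and each stage was compared with the one before it. Adjusted p is from edgeR's quasi-likelihood test with Benjamini-Hochberg adjustment over all genes tested, with the mouse as a factor, and a call is an adjusted p under 0.05. All changes are relative to the other genes of the same cells, and less RNA per cell cannot be seen in them. From SG to early SC, 8 of 9 members were called, 4 higher and 4 lower, where 60.3% of 19432 genes tested were called. From early SC to P SC, 7 of 9 were called, with Larp7 higher and 6 lower, against 58.7% of all genes. From P to D SC, 6 of 9 were called, again with Larp7 higher and the other 5 lower, against 66.3%. From D SC to RS all 9 were called, with Ell2, Ccnt1 and Paf1 higher and 6 lower, against 77.2%. Shares of this size among all genes mean that a call by itself sets no member apart. The median log2 change of the members was 0.18, -0.65, -0.43 and -0.59 in these 4 steps, beside 0.01, 0.00, -0.05 and -0.02 over all genes.

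Scaling bears on these directions. With library totals in place of TMM factors, the median of all genes moved by -0.14, -0.26, -0.36 and 0.23 on the log2 scale in the 4 steps and by 0.13 between Sertoli cells and SG. Among member changes called with either scaling, only those of Supt5 turned. They went from 0.02 to -0.24 from early SC to P SC (adjusted p = 0.0109) and from 0.07 to -0.29 from P to D SC (adjusted p = 0.00222).

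**Figure D1:**
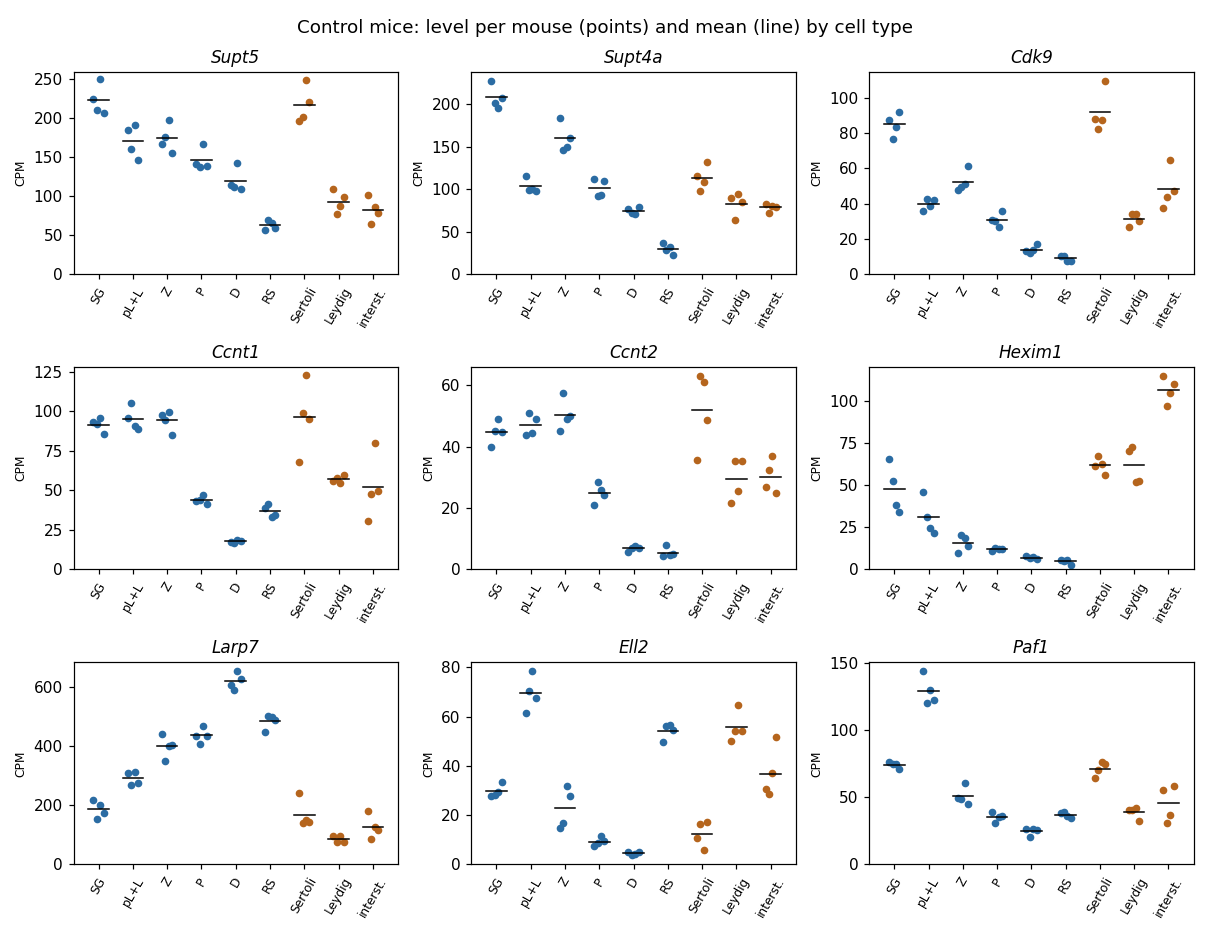
Level of each of the 9 genes in CPM (vertical axes, each from 0) in 9 classes of cells (horizontal axis, preleptotene and leptotene SC apart from zygotene SC), with 1 point per control mouse and a line at the mean of the 4 mice. Larp7 was lowest among germ cells in SG and highest in D SC at 591 to 657 CPM, and Ell2 fell to 3.65 to 5.24 CPM in D SC and stood at 49.8 to 56.4 CPM in RS.

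DSIF. Supt5, on chromosome 7 of GRCm38 from 28314891 to 28338746, encodes the large subunit of DSIF, which contacts Pol II and is itself a substrate of P-TEFb. In SG of control mice 1 to 4 it stood at 225, 211, 250 and 207 CPM, and in RS at 56.6, 70.0, 65.2 and 59.8 CPM. In CPM, which is scaled to all UMIs, early SC (151 to 194), P SC (138 to 166) and D SC (110 to 142) lay in between, but the fit with TMM factors gave no fall from early SC to P SC (0.02, adjusted p = 0.832) or from P to D SC (0.07, adjusted p = 0.47). The ranges of SG and Sertoli cells (197 to 249 CPM), of early SC and P SC, and of P SC and D SC overlapped. The step from D SC to RS was a fall by 1.16 ± 0.088 (SE) on the log2 scale (adjusted p = 3.13e-11), to 0.449-fold. From SG to early SC the fall was by 0.23 ± 0.086 (adjusted p = 0.0268), and this call was lost in 4 of the alternatives tried (adjusted p 0.0638 to 0.106).

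Supt4a, the small zinc finger subunit (chromosome 11, 87737552 to 87743623), stood at 228, 201, 196 and 207 CPM in SG. It was lower in preleptotene and leptotene SC, at 116, 98.5, 100 and 97.7 CPM, and higher again in zygotene SC, at 183, 146, 150 and 160 CPM, with no overlap between these 3 stages. By cluster, SG and zygotene SC did overlap. The SG cluster led by Lin28a, with 71.1% of control SG UMIs, held 174 to 214 CPM, and that led by Gfra1 and Ret 250 to 288 CPM. Pooled early SC lay below SG by 0.52 ± 0.094 on the log2 scale (adjusted p = 5.05e-05). In RS the 4 mice had 37.0, 27.9, 32.1 and 22.7 CPM, all under the 70.6 to 78.7 CPM of D SC, a fall by 1.57 ± 0.10 on the log2 scale (adjusted p = 1.55e-12), the largest drop of a member in this step. Supt4a was also higher in SG than in Sertoli cells, which held 115, 98.2, 109 and 132 CPM, by 0.73 ± 0.098 on the log2 scale (adjusted p = 8.57e-07). For Supt5 this difference was -0.10 (adjusted p = 0.334). Its levels in preleptotene and leptotene SC (147 to 192 CPM) and in zygotene SC (155 to 197 CPM) overlapped, where those of Supt4a did not.

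P-TEFb. Cdk9, the kinase (chromosome 2, 32705784 to 32713076), was lower at each tested stage, early SC being pooled, than at the one before it. Control SG held 87.3, 76.8, 83.6 and 91.9 CPM, D SC 12.9, 11.9, 13.5 and 16.9 CPM, and RS 10.4, 10.4, 7.64 and 7.29 CPM. SG overlapped only with Sertoli cells (82.5 to 110 CPM), and preleptotene with leptotene SC (36.0 to 42.5 CPM) lay below zygotene SC (47.6 to 61.1 CPM). The falls were by 0.73 ± 0.10 into early SC (adjusted p = 1.63e-06), by 0.32 ± 0.10 into P SC (adjusted p = 0.0112), by 0.80 ± 0.10 into D SC (adjusted p = 3.88e-07) and by 0.89 ± 0.12 into RS (adjusted p = 3.15e-07), all on the log2 scale. The call into P SC was lost without control replicate 2 (-0.28, adjusted p = 0.0602) or replicate 3 (-0.29, adjusted p = 0.0867), and the fall into RS turned to 0.42 at a finer clustering, described below.

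Ccnt1 encodes cyclin T1, the partner of CDK9 that also binds HEXIM proteins (chromosome 15, 98538689 to 98570923). SG held 93.0, 91.8, 95.7 and 85.5 CPM and early SC 96.7, 98.3, 94.4 and 86.5 CPM, ranges that overlap, with a difference of 0.18 ± 0.11 on the log2 scale (adjusted p = 0.168). P SC held 43.4, 44.1, 47.2 and 41.4 CPM and D SC 17.2, 16.8, 18.8 and 17.7 CPM, without overlap. The P SC cluster that gave 87.7% of P SC UMIs, with 952 cells, held 37.8 to 42.1 CPM. The other, with 1415 cells, held 65.9 to 83.6 CPM. Both lay below every early SC value and above every D SC value. RS held 38.9, 41.3, 33.4 and 34.4 CPM, which is above every D SC value, by 0.83 ± 0.12 on the log2 scale (adjusted p = 6.57e-07). The RS cluster that gave 80.6% of RS UMIs held 22.5 to 27 CPM and the other 63.9 to 123 CPM, beside 15.7 to 20.5 CPM in the D SC clusters.

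Ccnt2, which encodes the other cyclin T (chromosome 1, 127774164 to 127808061), went down with Ccnt1 through meiosis. It stood at 44.5, 55.1, 46.2 and 49.5 CPM in early SC, at 21.1, 28.3, 25.9 and 24.2 CPM in P SC and at 5.65, 6.89, 7.68 and 7.03 CPM in D SC. In RS it held 4.38, 7.87, 4.53 and 5.08 CPM, a range that overlaps D SC, and the fit gave a fall by 0.57 ± 0.14 on the log2 scale (adjusted p = 0.000964), a call that was lost in DESeq2 (-0.17, adjusted p = 0.306) and that turned to 0.53 (adjusted p = 0.0335) at the finer clustering described below. The early SC against SG call (0.27 ± 0.12, adjusted p = 0.0493) was lost in 7 alternatives, with adjusted p from 0.0665 to 0.371.

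7SK ribonucleoprotein. Hexim1 encodes the protein that inhibits P-TEFb when bound to 7SK RNA (chromosome 11, 103116231 to 103119725). Its levels were highest outside the germ line, at 115, 96.9, 105 and 110 CPM in interstitial cells, with 51.8 to 72.7 CPM in Leydig cells and 56.2 to 67.4 CPM in Sertoli cells. SG held 65.3, 52.4, 38.2 and 33.9 CPM, the widest relative spread of a member in this class. Among SG, the cluster led by Gfra1, Ret and Egr4, genes known from undifferentiated SG, held 12.3 to 18.2 CPM, while the cluster led by Lin28a and Crabp1 held 42.0 to 77.1 CPM over the same 4 mice. From SG on, Hexim1 was lower at each tested stage, early SC being pooled. It stood at 10.7, 12.7, 12.0 and 12.2 CPM in P SC, 7.90, 6.68, 7.19 and 6.21 CPM in D SC and 5.47, 5.19, 5.52 and 2.58 CPM in RS, with no overlap between these 3. The falls were by 0.88 ± 0.15, 0.65 ± 0.16, 0.43 ± 0.15 and 0.87 ± 0.18 on the log2 scale (adjusted p = 2.65e-05, 0.000998, 0.0159 and 0.000121), of which that into D SC was lost in 6 alternatives (adjusted p 0.0514 to 0.0873) and that into RS turned to 0.28 (adjusted p = 0.299) at the finer clustering. Clusters within later stages differed as well. Leptotene SC held 21.3 to 46 CPM, above the SG cluster led by Gfra1, and zygotene SC 9.86 to 20.5 CPM, a range that holds all P SC values. The P SC cluster of 1415 cells, at 10.3 to 19.8 CPM, overlapped zygotene SC. The RS cluster led by Prm1 and Tnp2, with 560 of the control RS and 80.6% of their UMIs, held 1.10 to 3.83 CPM, whereas the other, with 1555 cells, held 10.4 to 22.9 CPM, above the D SC clusters with Pou5f2 (7.19 to 9.31 CPM) and Ccna1 (2.45 to 3.81 CPM) among their leading genes.

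Larp7 encodes the La-related protein that binds the 3′ end of 7SK RNA and keeps it stable (chromosome 3, 127536714 to 127553349). Up to D SC it ran the other way from Hexim1, and both fell from D SC to RS. SG of the 4 control mice held 219, 153, 200 and 174 CPM, preleptotene and leptotene SC 310, 270, 315 and 277 CPM, zygotene SC 444, 352, 402 and 403 CPM, and D SC 608, 591, 657 and 629 CPM. Of neighbouring stages, zygotene and P SC (409 to 468 CPM) overlapped and the others did not. The rises were by 1.05 ± 0.11 into early SC (adjusted p = 3.02e-08), 0.60 ± 0.11 into P SC (adjusted p = 5.3e-05) and 0.87 ± 0.11 into D SC (adjusted p = 3.16e-07), on the log2 scale. The deeper P SC cluster, with 87.7% of the P SC UMIs, held 433 to 483 CPM. The shallower held 234 to 365 CPM, not above zygotene SC. RS held 448, 504, 499 and 490 CPM, a fall by 0.59 ± 0.11 (adjusted p = 3.98e-05) that ended with all mice above their SG and whose call was lost in DESeq2 (-0.20, adjusted p = 0.0966). Larp7 was also found in free RNA, taken as the barcodes of 1 to 100 UMIs, at 347 to 395 CPM in the control libraries, a level above that of SG and below that of D SC.

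Super elongation complex. Ell2 encodes an elongation factor that joins P-TEFb in this complex (chromosome 13, 75706757 to 75772364), and a transcript counted on its own, Gm48302, lies on the same strand in one of its introns. SG of control mice held 27.8, 28.2, 29.2 and 33.4 CPM, and preleptotene and leptotene SC 61.3, 70.3, 78.3 and 67.6 CPM. Zygotene SC held 14.8, 16.9, 31.9 and 27.8 CPM, P SC 7.59, 8.88, 11.4 and 9.36 CPM, and D SC 5.24, 3.65, 4.17 and 5.01 CPM. RS then held 49.8, 56.4, 56.4 and 54.4 CPM. With these classes, each of the 4 mice was high in preleptotene and leptotene SC, low in D SC and high again in RS. No neighbouring stages shared values, but the shallower P SC cluster, at 7.43 to 21.7 CPM, overlapped zygotene SC. The fall from P to D SC turned to a rise of 1.80 at the finer clustering. In the order of levels, SG and zygotene SC overlapped. In the fit, early SC lay above SG by 0.76 ± 0.16 (adjusted p = 0.000361), P SC against early SC gave -2.02 ± 0.18 (adjusted p = 8.67e-10), and RS above D SC by 3.38 ± 0.18 (adjusted p = 6.98e-14), 10.4-fold, which was 1.75 (adjusted p = 5.05e-08) at that clustering, described below. Within the classes, the SG cluster led by Gfra1 and Ret held 12.1 to 20.0 CPM and that led by Lin28a 29.3 to 42.0 CPM. The D SC cluster with Pou5f2 among its leading genes held 1.42 to 2.41 CPM and that led by Ccna1, a cyclin of late meiosis, 11 to 17.2 CPM. The RS cluster led by Prm1 and Tnp2, the genes of protamine and transition protein, held 37.7 to 51.2 CPM, and the other RS cluster 69.1 to 101 CPM.

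**Figure D2:**
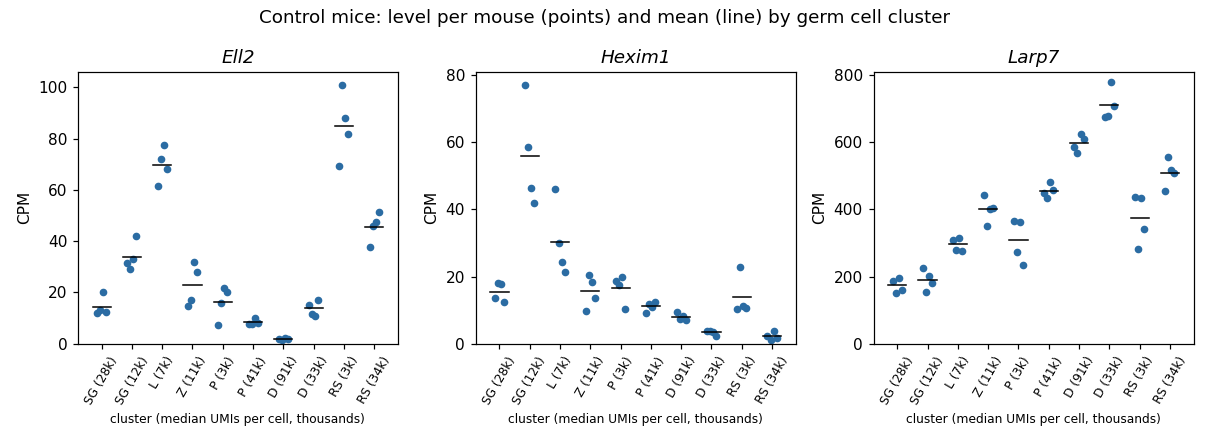
Level of Ell2, Hexim1 and Larp7 in CPM (vertical axes, each from 0) in the germ cell clusters that all 4 control mice enter (horizontal axis, with the median UMIs per cell of the cluster), with 1 point per mouse and a line at the mean. For Ell2, 1 cluster of D SC (11 to 17.2 CPM) lies above the other (1.42 to 2.41 CPM) in all 4 mice, and for Hexim1 1 cluster of SG (42.0 to 77.1 CPM) lies above the other (12.3 to 18.2 CPM).

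PAF1 complex. Paf1 encodes the subunit that gives the complex its name, which travels with elongating Pol II (chromosome 7, 28392951 to 28399388). SG held 76.3, 74.7, 75.1 and 71.4 CPM, and preleptotene and leptotene SC 145, 120, 130 and 122 CPM. Zygotene SC held 49.3, 48.7, 60.4 and 45.1 CPM, below both. D SC were lowest, at 26.2, 20.8, 26.3 and 25.6 CPM, and RS held 38.5, 39.2, 36.2 and 34.7 CPM. Like Ell2, Paf1 thus peaked in preleptotene and leptotene SC and rose from D SC to RS. The latter rise was by 0.36 ± 0.099 on the log2 scale (adjusted p = 0.00239), a call that was lost without a filter on low counts (0.18, adjusted p = 0.216). Early SC against SG gave 0.40 ± 0.097 (adjusted p = 0.00105) and P SC against early SC a fall by 1.07 ± 0.099 (adjusted p = 2.35e-09).

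Clustering decides some of these stage values. At the finer Leiden resolution of 1.2, the cluster with Pou5f2 among its leading genes, which held 78.5% of the D SC UMIs of controls at a median of 91183.5 UMIs per cell, was named P SC instead. With that name, Ell2 rose from P to D SC by 1.80 on the log2 scale (adjusted p = 5.01e-08), where it had fallen by 0.71 ± 0.18 (adjusted p = 0.00148), its rise into RS was 1.75 in place of 3.38, and the falls of Cdk9, Ccnt2 and Hexim1 into RS turned to 0.42, 0.53 and 0.28. As for Hexim1, the shallower RS cluster held more of Cdk9 (11.9 to 33.4 CPM) and Ccnt2 (8.04 to 33.4 CPM) than the other (2.67 to 6.39 and 1.98 to 3.20 CPM). In the shallower P SC cluster Ccnt2 (38.1 to 56 CPM) overlapped zygotene SC (45.2 to 57.5 CPM), while the deeper held 18.1 to 25.2 CPM. Supt4a stood at 30.9 to 52.9 CPM in the shallower and at 99.6 to 122 CPM in the deeper. Supt5 stood at 74.4 to 102 CPM in the shallower, below every D SC value, and at 145 to 176 CPM in the deeper. No cluster was named leptotene at the finer resolution, where that led by Stxbp5l, Sdk1 and Hist1h2aa was named preleptotene.

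Against Sertoli cells, the somatic cells that nurse the germ cells in the tubule, 5 of 9 members were called in SG, with 63.6% of all genes. Supt4a (above) and Ell2 were higher in SG. Ell2 stood at 10.8, 16.4, 5.87 and 17.2 CPM in Sertoli cells, below every SG value, and the difference was 0.99 ± 0.20 on the log2 scale (adjusted p = 0.000188). Hexim1 (-0.57 ± 0.15, adjusted p = 0.00213), Ccnt2 (-0.36 ± 0.12, adjusted p = 0.0129) and Cdk9 (-0.25 ± 0.10, adjusted p = 0.0413) were lower in SG, of which the calls for Ccnt2 and Cdk9 were lost in 7 and 8 alternatives. The 2 Sertoli clusters of controls differed here. In the deeper, with 221 cells, Ccnt2 stood at 57.5 to 73.7 CPM and Hexim1 at 59.8 to 84.1 CPM, and in the shallower, with 725 cells, Ccnt2 at 6.61 to 30.2 CPM, below the SG cluster led by Lin28a (39.9 to 50.6 CPM), and Hexim1 at 25.7 to 44.4 CPM against 42.0 to 77.1 CPM. In Leydig cells, which make androgen, Cdk9 (26.6 to 34.1 CPM) and Supt5 (76.7 to 109 CPM) were below their Sertoli cell values in all 4 mice, and Ell2 (49.9 to 64.7 CPM) was above them. The Leydig cell values were not tested. Macrophages, endothelial, myoid and other immune cells passed 20 cells in at most 1 control mouse and are not compared.

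Of the other 36 genes of the pathway lists, 26, 23, 29 and 32 were called in the 4 steps from SG to RS, beside 60.3%, 58.7%, 66.3% and 77.2% of all genes tested. From SG to early SC, 18 rose and 8 fell, led by Tcea3 (-3.95), an elongation factor of the TFIIS family, Aff4 (2.92), the scaffold of the super elongation complex, and Brdt (2.60), the BET protein of the testis. Mllt3 (-2.07), Aff1 (-1.84) and Eaf2 (1.74), all of the same complex, followed. From early SC to P SC, 9 rose and 14 fell, with Ell3 (-3.92), Mllt3 (-2.91), Eaf2 (-2.37), Tcea2 (1.80), Brd3 (1.70) and Tcea3 (-1.65) changing most. From P to D SC, 9 rose and 20 fell, with Aff1 (-3.25), Tcea1 (-2.83), Hexim2 (1.86), Eaf1 (-1.65) and Aff4 (-1.38) among those changing most. From D SC to RS, where 77.2% of all genes were called, 8 rose and 24 fell. All 6 genes listed for the other transcription kinases and their partners fell. Of the other 8 genes of the super elongation complex, 6 rose and 2 fell, with Ell3 higher by 4.02 ± 0.55 and Mllt3 by 4.01 ± 0.25. No test compared these lists. Nelfa (-2.27), Nelfcd (-2.13) and Mnat1 (-2.06) fell most and Tcea1 rose by 1.88. In SG against Sertoli cells 31 were called, beside 63.6% of all genes, 22 of them higher in SG and 9 lower, among them all 4 NELF genes higher (Nelfcd 1.54), with Tcea3 (3.40), Aff4 (-2.79), Ell3 (1.90), Leo1 (-1.76) and Supt16 (1.45) differing most. These values are log2 fold changes from the same fits.

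Genes whose profile was most like that of a member were sought among 11235 genes, by the Pearson correlation of mean log2(CPM + 1) in controls over 9 cell types. Each cell type is 1 point, and points of the germ line share libraries, so the values only describe. Ell2 had the weakest partners, with Wwp1 at 0.874, Rpain at 0.873 and Phlpp1 at 0.870. Larp7 was most like Ift74 (0.992), Ica1l (0.990) and Pcmt1 (0.989), Hexim1 was close to Zfas1 (0.985) and Gk5 (0.980), and Cdk9 was most like Actr3 (0.982), Atg101 (0.977) and Adprhl2 (0.969). The other nearest genes were Rxrb (0.983) for Supt5, Klhdc4 (0.980) for Supt4a, Shoc2 (0.986) for Ccnt1, Uggt1 (0.991) for Ccnt2 and 6430548M08Rik (0.971) for Paf1.

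To ask whether loss of the pausing factor NELF-B moved these genes, NELF-B cKO mice were compared with controls in SG, early SC, both together and Sertoli cells. None of the 9 members was called by edgeR in any of the 4, with 1 member at an unadjusted p under 0.05 in each, and DESeq2 called 1 (Larp7) in early SC, with 15.2% of all genes, and in both together, with 9.97%, and 0 in SG, with 2.19%, and in Sertoli cells, with 0.478%. By edgeR, of all genes tested 0.00538% were called in SG, 1.65% in early SC, 0.0306% in SG with early SC and 0% in Sertoli cells, where 1506 genes had an unadjusted p under 0.05 and DESeq2 called 70. In SG, log2 differences of the members lay between -0.37 and 0.21, and Ell2 had the lowest unadjusted p. It held 22.0 and 23.9 CPM in SG of the NELF-B cKO mice, below every control mouse (27.8 to 33.4 CPM), a difference of -0.37 ± 0.12 with an adjusted p of 0.322. The SG of the 2 cKO mice lay mostly in different clusters, replicate 1 in that led by Lin28a (24.1 CPM, controls 29.3 to 42.0 CPM) and replicate 2 in another that held few control cells. In the cluster led by Gfra1 and Ret the cKO mice held 4.80 and 8.88 CPM and the controls 12.1 to 20.0 CPM. In early SC it held 56.2 and 56.1 CPM against 40.5, 36.4, 59.4 and 46.0 CPM in controls.

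Larp7 had the largest log2 difference of the members in SG with early SC pooled, while Hexim1 (0.50 ± 0.31, adjusted p = 0.36) had it in early SC and Ell2 in SG. In the pooled cells Larp7 stood at 194 and 153 CPM in the cKO mice against 260, 208, 246 and 246 CPM in controls, with no overlap. Larp7 was higher in early SC than in SG, so the pooled level also depends on the share of early SC, which was not tested. In SG alone it differed by -0.54 to -0.09 over 17 alternatives, and 0 of these called it. For the pooled cells the main fit gave the following. The difference was -0.50 ± 0.14 on the log2 scale (adjusted p = 0.148 in edgeR), DESeq2 called it (-0.49, adjusted p = 0.0204), and over all 17 alternatives the adjusted p ran from 0.0204 to 0.537. In early SC alone the cKO mice held 264 and 255 CPM and the controls 322 to 370 CPM (-0.43 ± 0.15, adjusted p = 0.134, DESeq2 0.024). Zygotene SC made up 20.7% and 55.2% of early SC in the cKO mice and 33.5% to 52.7% in controls. Within zygotene SC Larp7 stood at 282 to 319 CPM in the cKO mice against 352 to 444 CPM in controls, which was not tested. Larp7 in free RNA moved the same way, at 331 and 103 CPM in the 2 libraries of NELF-B cKO mice against 347 to 395 CPM. With free RNA subtracted, Larp7 was called neither in the pooled cells nor in early SC, but the main fit had called it in neither, so no call was lost. Over the 17 alternatives, this one among them, the difference was -0.67 to -0.36 in the pooled cells and -0.47 to -0.32 in early SC. The part of free RNA in the result was not tested. In SG with early SC the 5 genes of DSIF and P-TEFb differed by 0.07 to 0.23 on the log2 scale, and none was called.

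**Figure D3:**
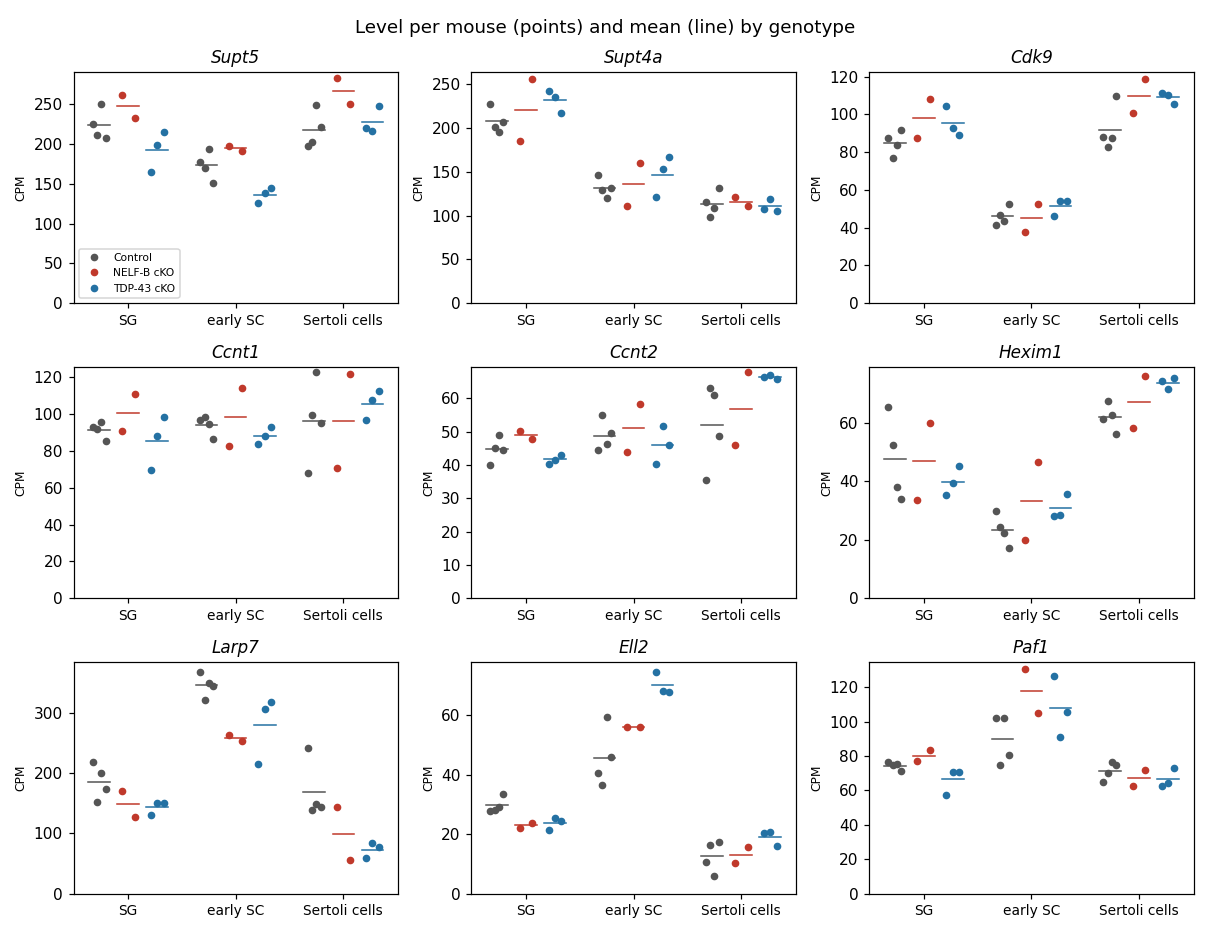
Level of the 9 genes in CPM (vertical axes, each from 0) in SG, early SC and Sertoli cells, with 1 point per mouse coloured by genotype (4 control, 2 NELF-B cKO, 3 TDP-43 cKO) and a line at the mean. Ell2 in early SC stands at 67.7 to 74.4 CPM in TDP-43 cKO mice and at 36.4 to 59.4 CPM in controls, and Larp7 in Sertoli cells at 58.9 to 83.5 CPM against 139 to 243 CPM.

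TDP-43 cKO mice were compared with controls in the same way, and these comparisons share the control mice with those of NELF-B cKO. In SG no member was called by edgeR, with 0.0108% of all genes, 1 (Ell2, -0.25 ± 0.10, adjusted p = 0.207) had an unadjusted p under 0.05, as did 4053 of 18596 genes, and DESeq2 called 0, with 9.89% of all genes. In SG with early SC again none was called, with 0.49% of all genes, 2 had an unadjusted p under 0.05, and Larp7 came closest at 150, 191 and 197 CPM against 208 to 260 CPM in controls (-0.38 ± 0.12, adjusted p = 0.0887, DESeq2 0.0349, with 16.2% of all genes called by DESeq2). For Larp7 in SG alone 18 alternatives gave -0.39 to -0.2, with 0 calls, and its pooled level also depends on the share of early SC. In early SC alone 1 of 9 was called, with 12.8% of all genes, and in Sertoli cells 1 of 9, with 12.1%. DESeq2 called 1 member in each as well, with 18.5% and 20.1% of all genes. Without any 1 mouse the calls over all genes in early SC fell from 1850 to between 87 and 843, and those in Sertoli cells from 1770 to 0, or to 1192 without control replicate 2. Supt4a, Cdk9, Ccnt1, Ccnt2, Hexim1 and Paf1 were called in none of the 4 by edgeR. Nor was Supt5 (early SC -0.26, adjusted p = 0.136), except with free RNA subtracted in early SC (-0.78, adjusted p = 0.0288). The share subtracted there was 32.4% to 58.2% in the TDP-43 cKO mice and 8.23% to 14.6% in controls. Within zygotene SC Supt5 stood at 130, 141 and 133 CPM in the cKO mice against 155 to 197 CPM in controls. Supt4a and Cdk9 went the other way in zygotene SC, also without overlap, with Supt4a at 206, 204 and 224 CPM against 146 to 183 CPM and Cdk9 at 70.0, 72.4 and 64.7 CPM against 47.6 to 61.1 CPM. These values within the zygotene cluster were not tested. They rest on 31 cells in TDP-43 cKO replicate 1, and Tardbp-positive cells were removed from the cKO mice only.

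Ell2 was the member called in early SC. The TDP-43 cKO mice held 74.4, 68.1 and 67.7 CPM and the controls 40.5, 36.4, 59.4 and 46.0 CPM, so that the groups did not overlap. The difference was 0.71 ± 0.16 on the log2 scale (adjusted p = 0.0317), 1.63-fold. Within preleptotene and leptotene SC the cKO mice held 80.3, 93.5 and 93.8 CPM against 61.3 to 78.3 CPM, but these were different clusters. Of TDP-43 cKO cells 492 lay in the cluster named preleptotene and 35 in that named leptotene, and of control cells 17 and 1006. Only TDP-43 cKO replicate 2 had over 20 cells in the leptotene cluster, 24 cells with 5 UMIs of Ell2 (46.4 CPM, controls 61.3 to 77.5 CPM), too few to read an order. Within zygotene SC, a single cluster, the cKO mice held 45.3, 46.7 and 47.2 CPM against 14.8 to 31.9 CPM. Replicate 1 had only 31 of these cells, and Tardbp-positive cells were removed from the cKO mice only. Zygotene cells made up 17.4%, 53.1% and 51.1% of early SC in the TDP-43 cKO mice and 33.5% to 52.7% in controls. The call rested on the choice of cells and of mice: it was lost with Tardbp-positive germ cells kept (0.52, adjusted p = 0.0826) or removed in controls too (0.29, adjusted p = 0.416), and without any 1 of the mice except control replicate 3 (adjusted p 0.0558 to 0.0837).

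In SG the TDP-43 cKO mice held 21.2, 25.4 and 24.3 CPM of Ell2, all below controls, so the difference between early SC and SG was tested directly. Here too the clusters differed: 1171 of the TDP-43 cKO SG lay in a cluster with 61 control cells, at 30.1 to 32.6 CPM, and 1685 of the control SG in the cluster led by Lin28a, at 29.3 to 42.0 CPM. In the cluster led by Gfra1 and Ret, which all these mice entered, the cKO mice held 10.8, 9.70 and 7.73 CPM and the controls 12.1 to 20.0 CPM. The interaction was 0.89 ± 0.19 on the log2 scale (adjusted p = 0.0483, with 1.06% of all genes called), with a range of 0.68 to 1.03 and of adjusted p from 0.00613 to 0.116 over 5 alternatives. For NELF-B cKO the same term was 0.63 ± 0.21 (adjusted p = 0.201, with 0.00551% of all genes called).

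**Figure D4:**
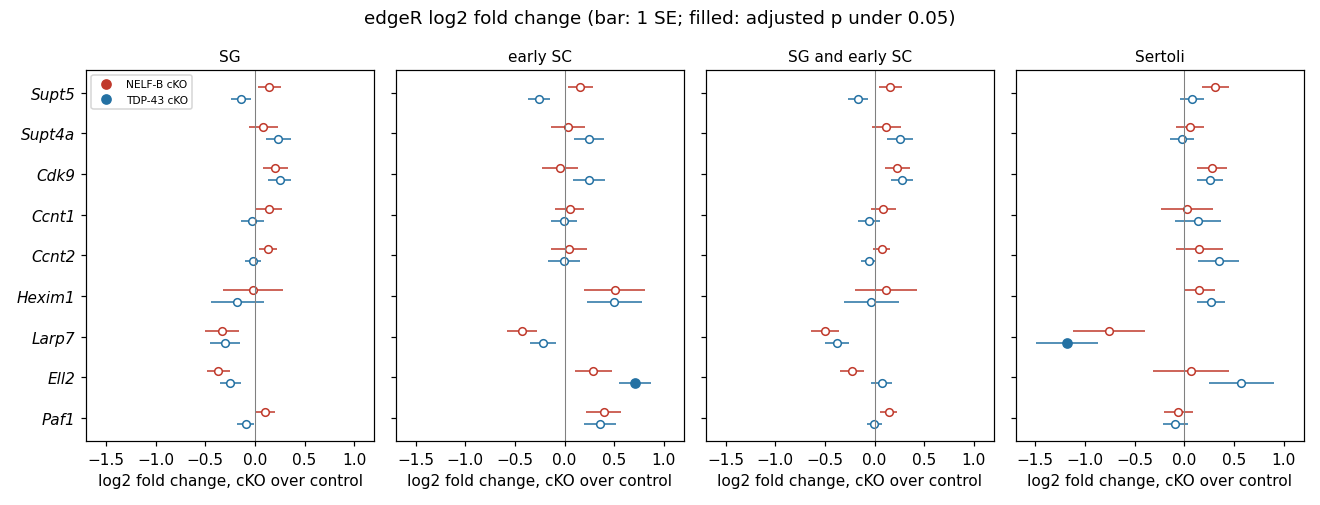
Log2 fold change of each cKO against control for the 9 genes in SG, early SC, both together and Sertoli cells, with bars of 1 standard error and filled points where edgeR's adjusted p is under 0.05. Filled points are Ell2 in TDP-43 cKO early SC (0.71) and Larp7 in TDP-43 cKO Sertoli cells (-1.18).

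Larp7 was the member called in Sertoli cells, in which Stra8-iCre is not known to act and in which Tardbp itself stood at 80.5, 77.8 and 73.7 CPM against 99.0 to 111 CPM in controls (adjusted p = 0.0393). The TDP-43 cKO mice held 58.9, 83.5 and 77.2 CPM and the controls 243, 139, 150 and 144 CPM, without overlap (-1.18 ± 0.32 on the log2 scale, adjusted p = 0.0431). Sertoli cells lay in 2 clusters, which held different shares of the groups: 773 TDP-43 cKO and 221 control cells in the deeper cluster led by Clu and Sox9 (median 34863 UMIs), and 446 and 725 cells in the shallower (median 2149.5 UMIs). In the deeper cluster Larp7 stood at 59.0, 74.2 and 74.5 CPM in the TDP-43 cKO mice and at 104 to 137 CPM in controls, and in the shallower at 57.7, 155 and 133 CPM against 245 to 355 CPM, with no overlap in either. NELF-B cKO replicate 1 stood at 144 CPM with the controls and replicate 2 at 55.4 CPM with the TDP-43 cKO mice. In free RNA NELF-B cKO replicate 2 and the TDP-43 cKO mice were again the lowest, with Larp7 at 85.9, 238 and 206 CPM in the TDP-43 cKO libraries, 331 and 103 CPM in those of NELF-B cKO, and 395, 347, 391 and 361 CPM in controls. Sertoli cells had a median of 24685.5, 8150 and 19434.5 UMIs in TDP-43 cKO mice, of 2409 and 3286 UMIs in NELF-B cKO mice and of 1971.5 to 2683 UMIs in controls. The call was lost without any 1 mouse (adjusted p 0.0539 to 0.154), and among cells of 5000 UMIs or more the difference was -0.83 (adjusted p = 0.0632). With free RNA subtracted, in the amount that the UMIs of spermatid genes in Sertoli cells allow at most, it was -1.66 (adjusted p = 0.0923). This amount was 47.6%, 18.3% and 18.4% of UMIs in the TDP-43 cKO mice and 11.45% to 23.3% in controls.

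**Figure D5:**
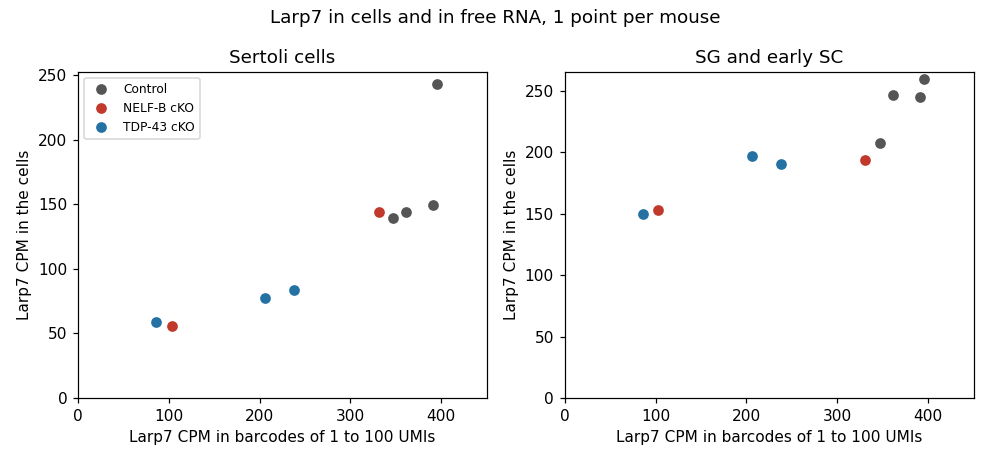
Larp7 in CPM in Sertoli cells (left) and in SG with early SC (right, vertical axes) against Larp7 in CPM in barcodes of 1 to 100 UMIs of the same library (horizontal axis), with 1 point per mouse coloured by genotype. The 4 libraries with 85.9 to 238 CPM of Larp7 in free RNA, NELF-B cKO replicate 2 and the 3 TDP-43 cKO mice, are those with 55.4 to 83.5 CPM in Sertoli cells, and the other 5 mice stand at 139 to 243 CPM.

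Whether germ cells and Sertoli cells of the same mice differed in their response was tested by an interaction. For TDP-43 cKO it was called for 2 of 9 members, Supt5 (-0.62 ± 0.16, adjusted p = 0.0277) and Ccnt2 (-0.79 ± 0.22, adjusted p = 0.0368), with 12.7% of all genes. Supt5 in SG with early SC stood at 156, 183 and 196 CPM in cKO mice and at 184 to 233 CPM in controls, and in Sertoli cells at 220, 216 and 247 CPM against 197 to 249 CPM. Ccnt2 in SG with early SC stood at 40.3, 44.2 and 43.9 CPM against 41.3 to 48.3 CPM, and in Sertoli cells at 66.4, 66.9 and 65.7 CPM against 35.5 to 63.0 CPM. Within the deeper Sertoli cluster both overlapped with controls, Supt5 at 224 to 250 against 223 to 265 CPM and Ccnt2 at 67.4 to 71.2 against 57.5 to 73.7 CPM, and in the shallower cluster control levels were lower, at 129 to 139 CPM for Supt5 and 6.61 to 30.2 CPM for Ccnt2. The median of this term over all genes was itself -0.32 with TMM and 0.01 with library totals, with which both calls were lost (Supt5 -0.28, adjusted p = 0.243, and Ccnt2 -0.46, adjusted p = 0.187). For NELF-B cKO no member was called in this term, with 0.155% of all genes, and 0 had an unadjusted p under 0.05.

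Among the other 36 pathway genes, none but Nelfb was called in NELF-B cKO germ cells, and that call was set by the removal of cells with a Nelfb UMI and is no result. In TDP-43 cKO early SC, Tcea2 was lower (-1.34 ± 0.26, edgeR adjusted p = 0.0223) and Eaf2 (0.80 ± 0.21, 0.038) and Iws1 (0.37 ± 0.10, 0.0449) were higher, 3 of the 35 that could be tested, beside 12.8% of all genes. Calls over all genes there fell from 1850 to 1 with the replicate block and to 253 with Tardbp-positive germ cells removed in controls too. The preleptotene cluster held 492 TDP-43 cKO and 17 control cells and the leptotene cluster 35 and 1006. Levels of these 3 genes within clusters were not compared. Eaf2 binds ELL proteins and Iws1 works with Supt6 behind Pol II. In TDP-43 cKO Sertoli cells Tcea2 (-2.43 ± 0.49) and Ccnk (-0.98 ± 0.21), a cyclin of CDK12 and CDK13, were lower, 2 of 35, beside 12.1% of all genes. Free RNA moved the same way, with Tcea2 at 12.7 to 82.6 CPM in the TDP-43 cKO libraries against 208 to 275 CPM in controls and Ccnk at 37.0 to 110 CPM against 150 to 172 CPM. With free RNA subtracted, 0 of 13285 genes were called in TDP-43 cKO Sertoli cells, so neither Tcea2 nor Ccnk was called there. Calls over all genes also fell to 0 with the replicate block, and without any 1 control or TDP-43 cKO mouse except control replicate 2. The loss of these calls therefore cannot show the part of free RNA in these values, which was not tested.

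Later stages could be described in few cKO mice. NELF-B cKO replicate 1 had 406 D SC and 262 RS, with Larp7 at 619 and 473 CPM and Ell2 at 4.51 and 64.7 CPM, beside control ranges of 591 to 657 and 448 to 504 CPM for Larp7 and 3.65 to 5.24 and 49.8 to 56.4 CPM for Ell2. Ell2 therefore stood low in D SC and high in RS in this mouse as in the controls. In TDP-43 cKO replicates 2 and 3, 27 and 56 RS held Ell2 at 68.5 and 72.2 CPM. Of these, 26 and 46 cells lay in the shallower RS cluster, where they held 90.4 and 110 CPM beside 69.1 to 101 CPM in controls, from 9 and 23 UMIs of Ell2. Ccnt1 stood at 111 and 108 CPM in their P SC, but these were 43 and 54 cells with medians of 2399 and 2599 UMIs, most of them in the shallow of 2 clusters. In that cluster they held 142 and 120 CPM, from 17 and 19 UMIs of Ccnt1, beside 65.9 to 83.6 CPM in controls, and no test was made.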

How the data were processed

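Single cell RNA-seq libraries of the testes of 9 mice were read by UMI. The deposited matrices hold raw UMI counts of every gene in every barcode, as the authors obtained them from Cell Ranger on the mm10 reference, neither normalized nor filtered for cells. The submitters' processing notes name Cell Ranger 6.1.1 and 7.0.0. Library totals were 119203347 to 159407373 UMIs. The counting error of each level is set by the UMIs of the gene in its class and mouse.

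Kept barcodes (more than 1000 genes, less than 10% mitochondrial UMIs) were clustered with scanpy 1.11.5 and leidenalg 0.10.2 (3000 variable genes without the members, the pathway genes, Nelfb and Tardbp, 40 principal components, 20 neighbours, resolution 0.8, seed 7). Clusters were named by marker score, with 3 or more markers at 2-fold. After the clusters were inspected, those with a median under 2000 UMIs, with over 80% of their cells from a single mouse, or without most of the markers lost their names. Doublets were not called or removed beyond clusters with markers of several lineages, which were left unnamed.

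UMIs were summed per mouse and class of 20 or more cells and tested, two-sided, with the quasi-likelihood functions of edgeR 4.0.16 (R 4.3.3) after filterByExpr and TMM scaling, checked on simulated counts, with DESeq2 1.42.0 as an alternative. CPM are UMIs of a gene scaled to a sum of 1000000. Comparisons of stages had the mouse as a factor, since the classes come from the same animals, and those of genotypes had the group alone. p-values measure the spread between these libraries. Alternatives with library totals, with only cells of 5000 UMIs or more, and with free RNA subtracted were chosen after seeing the data. The amount of free RNA was set by the spermatid genes found in other cells, which is an upper estimate. Free RNA of the TDP-43 cKO libraries held fewer spermatid gene UMIs (42.3 to 196 CPM) than that of controls (617 to 1877 CPM). The share subtracted therefore differed between the groups.

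The members and the pathway lists were chosen with earlier results of these data known. All 9 members are named, with at most 6 other pathway genes per comparison, those called with the largest log2 fold change, and the 3 genes most like each member, of which the first is given where space is short. Some genes this rule names are not reported here. Levels by cluster and mouse, for 20 cells or more, were added after the values by class had been seen. Levels are not compared between genes. Positions come from GENCODE M21 (GRCm38).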

Additional observations from a re-analysis of the deposited data

Results flagged for a closer look

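Of 72 groups of 4 control mice, 6 held 1 mouse far from the other 3, where chance gives about 1 in 20. Supt5 stood at 166 CPM in P SC and at 142 CPM in D SC of control replicate 3, against 138 to 142 and 110 to 114 CPM in the other controls. Hexim1 stood at 2.58 CPM in RS of control replicate 4, against 5.19 to 5.52 CPM. Larp7 stood at 243 CPM in Sertoli cells of control replicate 1, against 139 to 150 CPM, and this mouse also had the fewest Sertoli UMIs of the controls. Paf1 stood at 20.8 CPM in D SC of control replicate 2, against 25.6 to 26.3 CPM, and at 32.6 CPM in Leydig cells of control replicate 4, against 40.6 to 42.0 CPM.

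In 3 cases the interaction test of edgeR called a member between TDP-43 cKO and class. Supt5 (-0.62, adjusted p = 0.0277) and Ccnt2 (-0.79, adjusted p = 0.0368) were lower in SG with early SC relative to Sertoli cells, with 12.7% of all genes called. Ell2 (0.89, adjusted p = 0.0483) was higher in early SC relative to SG, with 1.06% called. Supt5 and Ccnt2 kept the call in 2 of 5 alternatives each and Ell2 in 3 of 5. With library totals the calls of Supt5 and Ccnt2 were lost, and the median of their term over all genes went from -0.32 to 0.01.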

How the results depend on the processing

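Of 421 values of members called in the main or another setting, 328 kept direction and call, 66 lost the call, 20 gained one and 7 turned. The 7 were Supt5 with library totals in P SC against early SC (-0.24) and D SC against P SC (-0.29), and, at resolution 1.2, Ell2 in D SC against P SC (1.80), Cdk9 (0.42), Ccnt2 (0.53) and Hexim1 (0.28) in RS against D SC, and Cdk9 in SG against Sertoli cells (0.17). At that resolution 1 cluster of D SC was named P SC, and the shallower Sertoli cluster was left unnamed. In SG against Sertoli cells calls were gained by Ccnt1 in 3 alternatives, by Larp7 in 2, and by Paf1 and Supt5 in 1 each. A further 1433 values were called in neither fit.

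Numbers of members called moved as follows, and the cause was not tested. In SG with early SC, DESeq2 gave 1 for each cKO instead of 0, and removal of such germ cells in controls too gave 1 for NELF-B cKO. In NELF-B cKO early SC DESeq2 gave 1 instead of 0, with 15.2% of all genes called against 1.65% in the main fit. In TDP-43 cKO early SC the 1 call became 2 with free RNA subtracted and 0 without removal, with removal in controls too and at the thresholds of the study, and 0 to 1 when 1 mouse was left out. Of all genes, 1850 of 14509 were called there in the main fit and 751 of 11876 with free RNA subtracted. With removal in controls too 253 of 13642 were called, and without 1 mouse 87 to 843. In TDP-43 cKO Sertoli cells the 1 call became 0 with free RNA subtracted, at resolution 1.2, among cells of 5000 UMIs or more, at the thresholds of the study and without any 1 mouse (0 to 0). Of all genes, 1770 of 14647 were called there in the main fit and 0 of 13285 with free RNA subtracted. At resolution 1.2 it was 158 of 13840, and among cells of 5000 UMIs or more 1015 of 14137. In SG against Sertoli cells the 5 calls became 8 with DESeq2, 3 with library totals, 3 without a filter and 3 to 5 without 1 mouse. Over all genes this comparison gave 12355 calls among 19432 genes in the main fit and 10860 to 12858 calls over the alternatives. The 2 interactions of TDP-43 cKO with Sertoli cells became 0 with free RNA subtracted, with library totals and among deeper cells, and that with SG became 0 without removal. Over all genes the term with Sertoli cells gave 2542 calls in the main fit, and 15, 374 and 409 in these 3 settings. The term with SG gave 193 calls, and 96 without removal. In the term with SG, Ell2 lost its call in 2 of 5 alternatives, and Supt5 gained one in 1 (adjusted p = 0.0399).

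No source pairs the mice by replicate number. Deviations of same-numbered control and cKO mice correlated at 0.15 to 0.41 for the 2 NELF-B cKO mice and at -0.34 to 0.083 for the 3 TDP-43 cKO mice. Differently numbered mice were not compared, so these values cannot settle whether the mice were paired. With the replicate block, TDP-43 cKO early SC and Sertoli cells had 0 members called each, beside 1 of 14509 and 0 of 14647 genes tested. With no replicate block (mouse not a factor) SG against Sertoli cells had 3. The block changed no other number of members called by over 1.5 times.

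Numbers over all genes ran over the alternatives from 0 to 368 in NELF-B cKO SG (1 in the main fit), 1 to 1233 in SG with early SC (6), 1 to 1437 in early SC (240) and 0 to 90 in Sertoli cells (0), and for TDP-43 cKO from 0 to 1977 (2), 0 to 3279 (96), 1 to 2682 (1850) and 0 to 2946 (1770). The interactions ran from 1 to 133 (31) and 15 to 2932 (2542) with Sertoli cells and from 0 to 362 (1) and 96 to 933 (193) with SG, for NELF-B cKO and TDP-43 cKO. Few mice limit the genotype comparisons, and low counts limit Hexim1 and Ccnt2 in RS and Ell2 in Sertoli cells. The clusters of control RS held 2.56e+07 and 6.16e+06 UMIs and those of Sertoli cells 7.07e+06 and 2.23e+06. Levels of Ell2, Hexim1 and Ccnt2 were also low in D SC, but its clusters held 9.82e+07 and 2.69e+07 UMIs.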
